A study of Oryza sativa with 16 samples.

Results

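The loci described here gave a strong signal in Nipponbare shoot and a weak one in root, panicle and callus. They were picked from the 20404 probes that the array design carries as the common probe of a full-length cDNA (FL-cDNA) locus, 1 probe for each locus. A probe was taken when its signal intensity was over 2000 in Nipponbare shoot and under 1000 in each of root, panicle and callus, on a scale on which the median probe of every channel is 1000. These limits were met by 133 probes, 0.652% of the common probes and 1.18% of the 11310 common probes over 2000 in shoot.

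Rice shoots at the seedling stage are mostly leaf, and their messenger RNA is dominated by nuclear genes for light harvesting, carbon fixation and chloroplast maintenance. Roots and callus carry few or no developed chloroplasts, while panicles hold green glumes besides the floral organs. A locus that is transcribed in shoots and weakly elsewhere is therefore often, though not always, a gene of green tissue. FL-cDNA clones are copies of whole capped transcripts, so an FL-cDNA locus marks a place in the genome with known transcription. The files do not pair the locus identifiers with genes and show no probe sequences, so the loci are given by identifier. The identifier R10-00084F reads as chromosome 10, entry 84 of the design, forward strand. Lists of photosynthesis, wax, defense and root genes could not be matched to them, and the share of photosynthesis genes was not tested.

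Labelled RNA from shoots of IR64, or from roots, panicles or callus of Nipponbare, was hybridized together with RNA of Nipponbare shoot on 2-color arrays. IR64 is an indica cultivar, while Nipponbare is the japonica cultivar from which the FL-cDNA clones come. Shoots of both cultivars were grown in soil in a greenhouse under natural light and are 10 days old in the labels, although the methods of the study give an older age. Roots were grown for 10 days in hydroponic culture in a chamber, field panicles were taken at the late-boot stage, and callus was induced from scutella for 28 days. Each RNA sample was a pool of 10 plants. RNA of shoots was extracted with Trizol and that of the other tissues with an RNeasy kit, so the kit and the tissue cannot be told apart among the Nipponbare samples. The IR64 and Nipponbare shoots share the growth conditions and the extraction reagent. Each comparison has 2 replicates of opposite dye orientation, which gives 2 hybridizations for IR64 shoot, root, panicle and callus and 8 for Nipponbare shoot. The 8 shoot hybridizations repeat 2 extracts according to the labels. In bulk tissue, fewer cells of a type and less RNA per cell cannot be told apart.

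Each array held 42034 probes besides controls, of which 80.5 to 95.5% were well above background in a channel, and no spot of the 133 loci was saturated. The control spots that the files name CAB read between 29466 and 55180 in IR64 shoot, between 1158 and 1584 in root, between 4589 and 6189 in panicle, between 516 and 1078 in callus, and between 17253 and 49142 in Nipponbare shoot. The lowest shoot reading of these spots lay above the highest reading of the other tissues. Control spots under other names did not follow this order, such as those named COR with 252 to 308 in root, against 197 to 391 in Nipponbare shoot.

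The median signal intensity of the 133 loci was 474 in root, 622 in panicle and 545 in callus, against 3039 in Nipponbare shoot. These levels were used to choose the loci and are given as a description. Over all common probes shoot was instead the lowest of the Nipponbare tissues, with medians of 3201 in root, 3442 in panicle and 3354 in callus, against 2568 in Nipponbare shoot. The signals of the 133 loci in shoot were uneven. Their quartiles were 2460 and 5603, 51 loci were over 4000, and the brightest read 40579. The 10 brightest loci held 29.4% of the summed shoot signal. Signals of different probes are not set against each other as transcript amounts, since each probe has its own brightness.

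**Figure D1:**
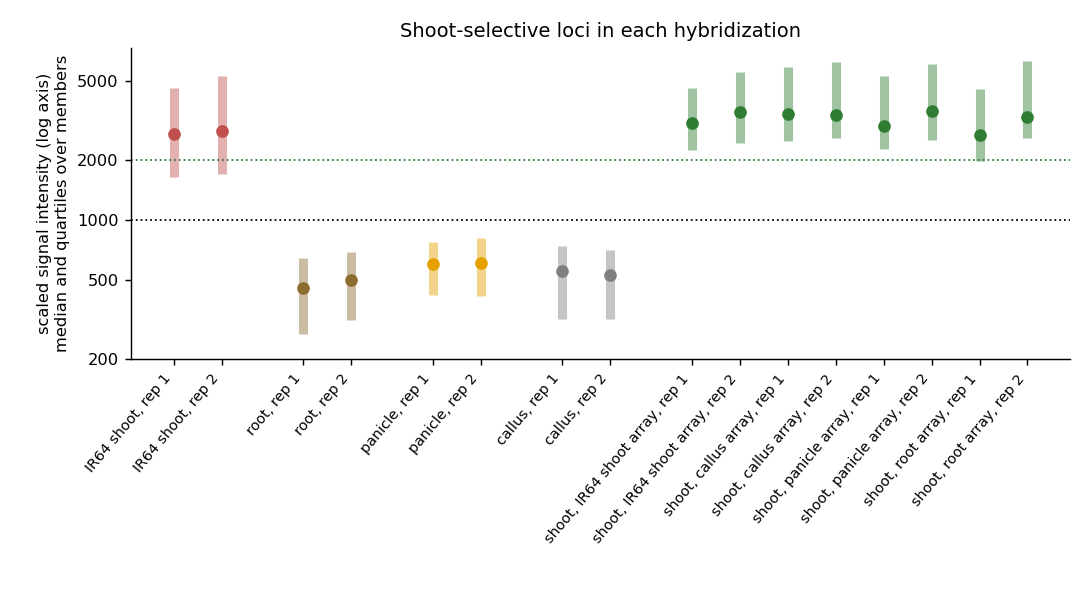
Scaled signal intensity (log axis) of the 133 loci in each hybridization, with points for the median and bars for the quartiles over loci, in IR64 shoot, root, panicle, callus and, at the right, Nipponbare shoot on the arrays of each comparison. The dotted lines are the limits of the rule at 1000 and 2000. The medians of the 8 Nipponbare shoot hybridizations lie between 2674 and 3552. The IR64 medians of 2726 and 2807 lie above only the lowest of them, against 3071 and 3502 for Nipponbare shoot on the same arrays.

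The hybridizations that follow are those the rule used, so the agreement among them is a description of the chosen loci. The highest of the 8 shoot readings of a locus was 1.67 times the lowest in the median, with a range over loci of 1.20 to 5.18. Of the 133 loci, 77 were over 2000 in 8 of 8 shoot hybridizations, 38 in 6 or 7, and 18 in 4 or 5. In the other direction, 110 loci were under 1000 in all 6 hybridizations of root, panicle and callus. For 131 loci no hybridization of another Nipponbare tissue reached the lowest shoot hybridization, and 2 loci overlapped. The limits of the rule favor this separation, and the same share over all common probes was not counted. Over all probes, 23.2% were called lower in root, 24.6% in panicle and 24.6% in callus than in shoot, but the rule fixed this contrast for the 133 loci and nothing is read from it. The rule applied to replicate 1 alone gave 117 loci and applied to replicate 2 alone gave 141, and 95 of the 133 loci were in both. Membership depended more on the scaling. With unscaled signals 117 loci met the limits, of which 65 were among the 133, and with the median of the probes well above background set to 1000 there were 113, of which 70 were among the 133. The locus with the widest spread, R04-00465F, read 3757 and 1021 in the IR64 hybridizations, 1390 and 403 in root, 685 and 587 in panicle and 732 and 742 in callus, against 798 to 4137 in Nipponbare shoot. Its readings were high in replicate 1 and low in replicate 2 of the IR64 and root arrays in both channels of the array.

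Among the other Nipponbare tissues, panicle was the one with the strongest residual signal. It was the highest of the 3 at 65 loci, callus at 43 and root at 25. Root was the lowest at 56 loci, callus at 42 and panicle at 35. Panicle also had the highest median of the 3 over all common probes, with 3442, against 3354 in callus and 3201 in root. The 3 tissues lay within 2-fold of each other at 84 of the 133 loci. The shoot signal was 5.20 times the highest other tissue in the median, with quartiles of 3.14 and 10.3 and a range of 2.07 to 47.8. It was over 10 times at 37 loci and under 3 times at 28. At 26 loci root, panicle and callus were each under 500.

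**Figure D2:**
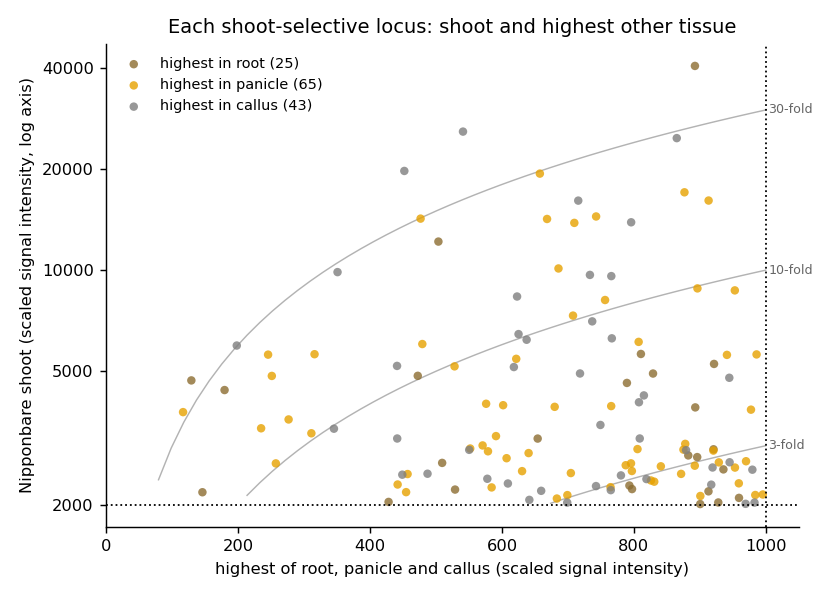
Each point is 1 of the 133 loci, with the highest signal intensity among root, panicle and callus on the horizontal axis and the signal intensity in Nipponbare shoot on the vertical log axis. Colors show which tissue was highest (65 panicle, 43 callus, 25 root), dotted lines are the limits of the rule and gray curves are equal ratios of 3, 10 and 30. Many loci crowd the corner next to both limits, and the 37 loci above the 10-fold curve are spread over the whole width.

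Many loci lay close to a limit. At 27 loci the highest other tissue was 900 or more, and at 16 loci the shoot signal was under 2200. The locus just inside the shoot limit, R12-00463R, read 2011 in shoot, and the probe just outside, R06-00693F, read 1999 with all 3 other tissues under 1000. At the root limit the values were 960 inside (R09-00272F) and 1001 outside (R09-00232F). At the panicle limit they were 996 inside (R01-00478R) and 1002 outside (R02-00068F), and at the callus limit 983 inside (R12-00070R) and 1005 outside (R02-01191F_C, its full probe name). A further 187 probes over 2000 in shoot failed only the panicle limit, against 44 that failed only the root limit and 43 that failed only the callus limit. Panicle was therefore the tissue that most often kept a probe out, and its median over all common probes was also the highest of the 3.

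The loci brightest in Nipponbare shoot were R11-00477F and R06-00777R. R11-00477F read 5433 and 7219 in IR64 shoot, 676 and 1110 in root, 724 and 1025 in panicle and 847 and 824 in callus, against 33272, 40579 and 56102 (lowest, median and highest) in Nipponbare shoot. Both IR64 readings lay below every Nipponbare shoot reading and above every reading of the other tissues. R06-00777R read 33257 and 31579 in IR64 shoot, 431 and 517 in root, 545 and 313 in panicle and 605 and 477 in callus, against 21727, 25865 and 32713 in Nipponbare shoot. Here IR64 shoot and Nipponbare shoot overlapped, and the other tissues were far below both.

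IR64 shoot took no part in choosing the loci, so its signals show how far the pattern carries over to a second cultivar. The median of the 133 loci in IR64 shoot was 2691, with quartiles of 1796 and 4953. In IR64 shoot 92 loci (69.2%) were over 2000, 29 lay between 1000 and 2000, and 12 were under 1000. Of the other 11177 common probes over 2000 in Nipponbare shoot, 91.1% were over 2000 in IR64 shoot, but these probes lay farther from the limit, with a median of 7276 in Nipponbare shoot, so the 2 shares were not taken at a like distance from it. IR64 shoot exceeded the highest of Nipponbare root, panicle and callus at 124 loci and did not at 9, all 9 of which were called lower in IR64. The rule held these tissues under 1000, so any locus at 1000 or more in IR64 exceeded them by the choice of loci. The same share over all common probes was not counted. IR64 root, panicle and callus were not analysed here, so whether these loci are shoot-selective in IR64 cannot be told. The Nipponbare shoot channels of the IR64 arrays were 2 of the 8 behind the shoot value of the rule.

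The ratio of IR64 shoot to Nipponbare shoot on the same array was tested with limma over all 83038 probes with a ratio, and 34 of the 133 loci (25.6%) were lower in IR64 at an adjusted p under 0.05, where 4.27% of all probes were called lower. Only 5 loci (3.76%) were higher, where 2.86% of all probes were called higher. The remaining 94 were not called. Without IR64 replicate 1 the fit called 20 loci lower and 3 higher, and without IR64 replicate 2 it called 20 lower and 2 higher. A fit on the IR64 arrays alone with limma called 0 of the 133 loci and also 0 of all 83038 probes. At an unadjusted p under 0.05 it had 44 loci lower and 11 higher, and these shares over all probes were not counted. Among the other common probes over 2000 in Nipponbare shoot, 7.22% were called lower and 3.63% higher. The median log2 ratio of the 133 loci was −0.20, with −0.11 in replicate 1 and −0.30 in replicate 2, against 0.02 over all probes. The ratio was below 0 at 86 loci, and at 72 loci it was below 0 in both replicates. Over all 83038 probes it was below 0 at 38812, and at 20881 in both replicates. It lay within 2-fold at 74.4% of the loci, against 92.7% of all probes. Among the other common probes over 2000 in Nipponbare shoot this share was 92.8%. When the loci were chosen without the shoot channels of the IR64 arrays, 131 probes met the limits, 129 of them among the 133. Of these 131, 35 (26.7%) were lower and 5 were higher in IR64, and their median log2 ratio was −0.25. According to the labels the remaining shoot channels carry the same shoot extracts as the IR64 arrays, so this choice is not independent of the tested ratio. The clones behind the probes are of Nipponbare, so the amount of transcript and the match of the probe to IR64 transcripts cannot be told apart.

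**Figure D3:**
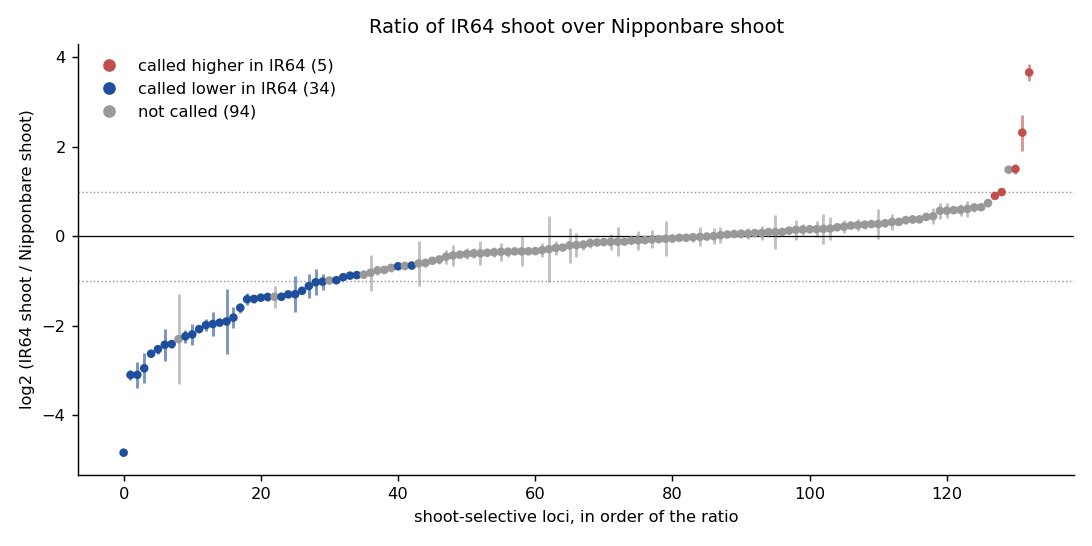
Log2 ratio of IR64 shoot over Nipponbare shoot of the 133 loci in order of the ratio, with points for the limma estimate and vertical lines joining the 2 replicates. The 34 loci called lower reach −4.84, the 5 called higher reach 3.66, and the dotted lines mark a 2-fold difference.

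The loci lower in IR64 had a median signal intensity of 1160 in IR64 shoot, against 3031 in Nipponbare shoot. Their log2 ratios reached from −0.66 to −4.84 with a median of −1.50, and 28 were lower by more than 2-fold. At all 34, both IR64 hybridizations lay below the lowest of the 8 Nipponbare shoot hybridizations. The calls were made from these same IR64 readings, so this separation is a description of the called loci and no separate evidence. The same share over all probes was not counted. Of the 12 loci under 1000 in IR64, 11 were in this class. The 94 loci not called had medians of 3102 in IR64 shoot and 3022 in Nipponbare shoot, and the 5 loci higher in IR64 had medians of 12117 in IR64 shoot and 3381 in Nipponbare shoot. The share called lower was similar at both levels of shoot signal. Of the 51 loci over 4000 in shoot 14 (27.5%) were lower in IR64, and of the 82 loci at 4000 or less 20 (24.4%) were. Among the other common probes over 2000 in shoot these shares were 7.46% and 6.58%. Each array set held 17 of the 34 loci, while all 5 loci higher in IR64 were on the first set.

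The largest differences went in both directions. R10-00084F read 49540 and 69357 in IR64 shoot, 437 and 507 in root, 342 and 461 in panicle and 252 and 206 in callus, against 3380, 4845 and 6066 (lowest, median and highest) in Nipponbare shoot. The IR64 signal was 12.7 times that of Nipponbare shoot on the same arrays (log2 ratio 3.66, SE 0.21, n = 2, limma adjusted p = 0.000367), and this locus was the brightest of the 133 in IR64. The common probe of R12-00433F read 8748 and 15485 in IR64 shoot, was not well above background in root and callus, and read 622 and 261 in panicle, against 1756, 2299 and 2603 in Nipponbare shoot. Its log2 ratio was 2.32 (SE 0.37, n = 2, limma adjusted p = 0.0139), and without the second IR64 replicate it was 1.91 with an adjusted p of 0.0965. This locus alone among the 2 highest, the 2 lowest and the 2 brightest had other probes, and they did not share the pattern of the common probe. Of its 5 other probes 1 was highest in Nipponbare shoot and 0 met the limits. Their medians were 1547 in root, 2318 in panicle and 6614 in callus, against 2852 in Nipponbare shoot, and at place 45 callus read 13555, against 1795 in Nipponbare shoot. In IR64, 1 of the 5 was called higher and 0 lower by limma.

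On the lower side, R05-00185R was not well above background in either IR64 hybridization. It read 214 and 318 in root, 887 and 971 in panicle and 662 and 702 in callus, against 1711, 2676 and 3752 in Nipponbare shoot. Its log2 ratio was −4.84 (SE 0.19, n = 2, limma adjusted p = 0.000137). With the background subtraction of the processed signals, IR64 shoot was at least 26.4-fold lower than Nipponbare shoot, a bound to which this p-value does not belong. The bound sets the mean of the Nipponbare shoot channels against the lowest signal well above background on the same arrays. It holds for that correction only, since with normexp and an offset of 50 the log2 ratio was −2.05. On the scaled signals IR64 shoot was below Nipponbare root, panicle and callus at this locus. R07-00471F read 1476 and 1851 in IR64 shoot, 576 and 737 in root, 862 and 892 in panicle and 927 and 743 in callus, against 13412, 17056 and 19300 in Nipponbare shoot. Its log2 ratio was −3.10 (SE 0.12, n = 2, limma adjusted p = 0.000201), with IR64 8.58 times lower. The bright locus R11-00477F was lower in IR64 by 5.76 times (log2 ratio −2.53, SE 0.15, n = 2, limma adjusted p = 0.000383). For R06-00777R the log2 ratio was 0.43 (SE 0.20, n = 2, limma adjusted p = 0.358), above 0 in both replicates and not called.

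Other probes of the same loci, which the rule did not use, gave further readings of the pattern at a part of the loci. Such probes existed for 42 of the 133 loci, and 91 loci had none. There were 155 of them, 126 of a class the annotation calls E5 and 29 specific to a transcript variant. Their median signal intensity was 2528 in IR64 shoot, 636 in root, 804 in panicle and 739 in callus, against 2852 in Nipponbare shoot. Nipponbare shoot was the highest of the 4 Nipponbare tissues for 119 of the 155 probes (76.8%), where it was the highest for 35.2% of all 17040 such probes of FL-cDNA loci. The shoot signal was over 2 times each other tissue for 72 probes (46.5%), against 9.43% of all such probes. All limits of the rule were met by 32 probes (20.6%) at 13 loci, against 167 (0.980%) of all such probes. Over all 155 probes the median ratio of shoot over the highest other tissue was 1.72. For the 32 probes it was 5.41, with a range of 2.42 to 42.8, but the limits that picked them fix a ratio over 2.

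The probes of 1 locus often disagreed. At 27 of the 42 loci every other probe was highest in Nipponbare shoot, at 13 only some were, and at 2 none was. Every other probe met all limits at 6 loci. Only 1 other probe existed at 17 of the 42 loci, so agreement among other probes cannot be seen there. Of the 123 probes that did not meet the limits, 63 were over 2000 in shoot but reached 1000 in another tissue, and 49 were at 2000 or less in shoot and under 1000 elsewhere. The identifier of a probe annotation ends in a number that is read here as the place of the probe in the locus, which the files do not state. Within 100 places of the common probe, 48 of 58 probes (82.8%) were highest in shoot, and beyond it 71 of 97 (73.2%) were.

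**Figure D4:**
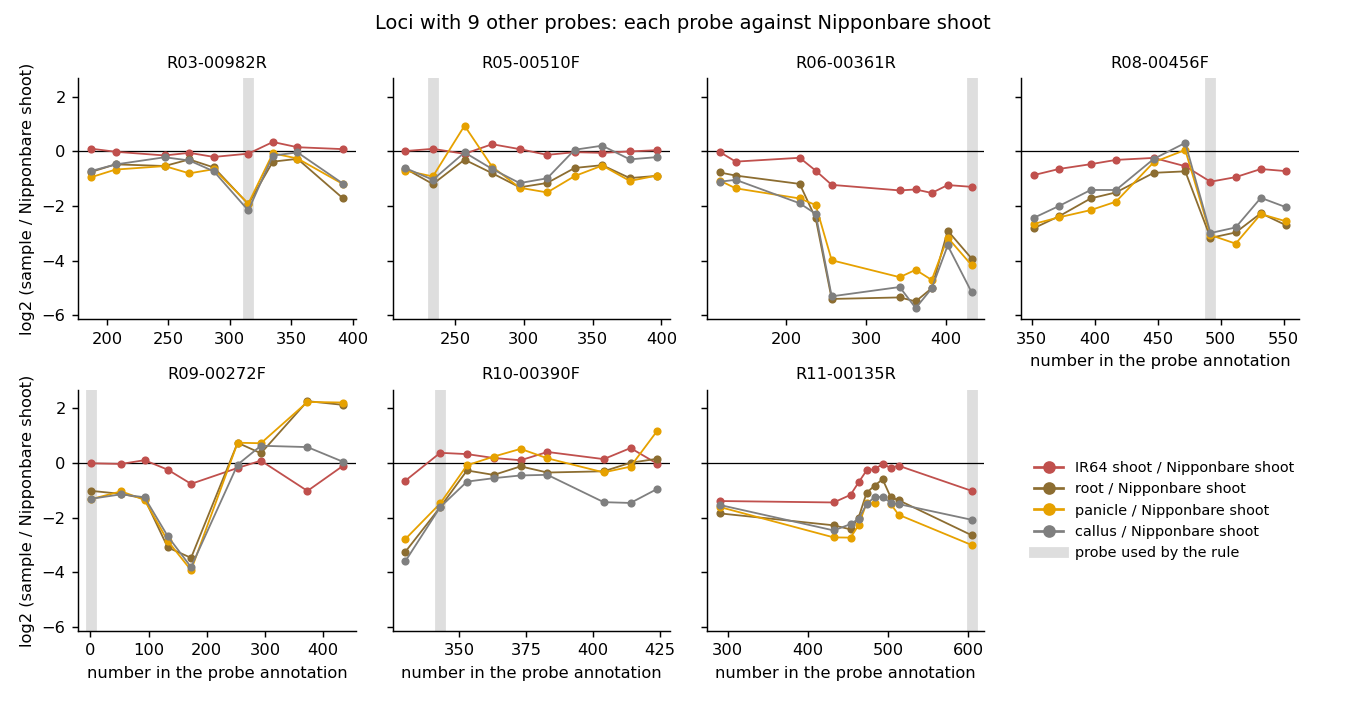
The 7 loci with 9 other probes, the most of any of the 133 loci, with the log2 ratio of IR64 shoot, root, panicle and callus over Nipponbare shoot on the same arrays for each probe, by the number that ends the probe annotation. The gray band is the probe used by the rule, and probes not well above background in the sample or in Nipponbare shoot are left out. At R06-00361R root, panicle and callus are below Nipponbare shoot at all 9 other probes, with a root ratio of −0.77 at place 117 and −5.49 at place 362.

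The 7 loci with 9 other probes, chosen for that number, show how the ratios run along a locus. At R06-00361R Nipponbare shoot was the highest Nipponbare tissue for 9 of 9 other probes, and 5 of them met all limits. For the probe at place 362 of this locus the signal was 4429 in IR64 shoot, 327 in root, 778 in panicle and 279 in callus, against 14607 in Nipponbare shoot. The probe at place 117 read 9674 in IR64 shoot, 4303 in root, 2647 in panicle and 3346 in callus, against 7595 in Nipponbare shoot. The common probe of R06-00361R was called lower in IR64 (log2 ratio −1.30, SE 0.21, n = 2, limma adjusted p = 0.0141), as were the probes at places 342, 362, 382 and 402, with ratios between −1.23 and −1.52. The probes at places 117, 137 and 217, which were less shoot-selective, had ratios between −0.02 and −0.38 and were not called. The probes at places 237 and 257 had ratios of −0.71 and −1.23 and were not called either.

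At R09-00272F root, panicle and callus were each below Nipponbare shoot at some probes and above it at others. At place 293 callus read 4965, against 2557 in Nipponbare shoot. The probes at places 133 and 173 read 6069 and 5653 in root, 7416 and 4475 in panicle and 7801 and 5385 in callus, against 59687 and 84792 in Nipponbare shoot. Those at places 373 and 434 read 899 and 1583 in root, 926 and 2030 in panicle and 161 and 280 in callus, against 172 and 405 in Nipponbare shoot. On the callus arrays themselves the log2 ratio of callus over Nipponbare shoot was 0.59 and 0.05 at these places. At R05-00510F all 5 probes from place 317 on were over 4000 in every tissue, and callus exceeded Nipponbare shoot for the probe at place 357, with 78615 against 62135. The common probe there read 907 in root, 867 in panicle and 970 in callus, against 2014 in Nipponbare shoot. None of the 9 other probes of R05-00510F met the limits.

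The calls between cultivars could be followed on other probes too. Over all 17040 other probes of FL-cDNA loci, 5.77% were called lower in IR64 and 2.32% higher. There were 10 loci called lower in IR64 that had other probes, 49 in all, of which 16 were called lower and 0 higher by limma, with a median log2 ratio of −0.65, and 7 of the 10 loci had at least 1 of them. The 29 loci not called had 96 other probes, of which 3 were called lower and 1 higher, with a median of −0.01. The loci called higher that had other probes were 3, with 10 such probes, of which 2 were called higher. Probes of 1 locus share transcripts and may overlap, so they are not independent.

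The 133 loci were spread over all 12 chromosomes, from 6 loci each on chromosomes 9 and 12 to 19 on chromosome 1. Relative to the common probes of a chromosome the count was highest on chromosome 10, with 11.3 loci per 1000 probes, and on chromosome 11, with 10.2, and lowest on chromosome 3, with 4.09. The forward strand held 79 loci (59.4%), where 50.7% of all common probes are on it. Consecutive entries of 1 strand held 4 pairs of loci, and 9 pairs lay within 3 entries. The common probes 1 entry before and after a locus, 252 in number, were highest in shoot in 26.2% of cases, close to the 23.3% of all common probes. The loci called lower in IR64 were on 11 chromosomes with 1 to 5 on each and none on chromosome 12. Among the 64 common probes next to them 7 (10.9%) were called lower in IR64, and among the 184 next to loci not called 14 (7.61%) were, where 5.99% of all common probes were called lower.

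A measurement on root-selective probes stands beside the low values. The 189 common probes chosen by the same limits for root instead of shoot had medians of 561 and 699 in the Nipponbare shoot channels of the root arrays, where the other channel held root RNA, and of 241 to 326 in the shoot channels of the other arrays. The root arrays differ from the others in the RNA of the other channel and also in their scan, and these cannot be told apart. The root, panicle and callus readings of the 133 loci were all taken beside Nipponbare shoot, so the same comparison could not be made for them, and the part of the shoot channel in their low values was not tested.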

How the data were processed

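The deposited intensity values are processed signals of Cy3 and Cy5, which the authors obtained with Agilent Feature Extraction (7.5 in the submitters' processing notes) after background subtraction and dye normalization within each array. The deposited log10 values of the series are ratios of Cy5 over Cy3. They equalled the scanner log ratios on all 16 arrays and served as an alternative after being turned to tissue over shoot. Other deposited columns hold flags of 0 or 1 that state whether a signal was well above background or an outlier. Deposited mean and background intensity values entered only the normexp alternative.

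Each of the 32 channels was scaled to a median of 1000 over probes other than controls, and values not well above background were set to 0. A tissue value was the median over its channels. The limits were those stated with the loci, and the loci, gene lists and tests were chosen with earlier results of these data known. Log2 ratios of processed signals on the same array, without outlier spots, were fitted with limma 3.58.1 in R 4.3.3, 1 fit for the 8 arrays of an array set, with Benjamini-Hochberg adjustment over both sets and a threshold of 0.05. The fit shares 1 spread among 4 comparisons and was tested on simulated data. The fold bound used Aquantile between arrays on the dye-normalized signals. No label ties the extracts to separate sets of plants, so p-values measure the spread between these hybridizations, and the number of arrays limits the precision. Each replicate number has its own dye orientation and each comparison its own scan, so neither pair can be told apart. In callus replicate 1 the labels name the shoot extract of replicate 2.

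Named were the 2 loci highest and the 2 lowest in IR64 among those called with the same sign in both replicates, the 2 brightest in Nipponbare shoot, and those nearest each limit. R04-00465F and the loci with 9 other probes were added after their values were seen.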

Additional observations from a re-analysis of the deposited data

How the results depend on the processing

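The alternatives for the rule gave 113 to 141 loci, except limits of 4000 and 500, but the scalings changed which loci: 65 of the 133 met the limits with unscaled signals and 70 with the scaling on probes well above background. Limits of 4000 and 500 left 12 loci, 4 lower and 1 higher in IR64, with a median log2 ratio of −0.57 and 83.3% over 2000 in IR64 shoot. The share over 2000 in IR64 shoot was 53.8% with unscaled signals, 79.6% with the median of the probes well above background set to 1000, 67.9% without the IR64 arrays in the shoot value, and 71.6 to 72.6% with 1 replicate left out of the rule, which gave 117 to 141 loci, 28 to 32 of them lower and 4 to 5 higher in IR64, with a median log2 ratio of −0.14. With the median of the probes well above background set to 1000, 22 of 113 loci were called lower in IR64. Medians over other probes of these loci were 1848 in IR64 shoot, 557 in root, 743 in panicle and 888 in callus with unscaled signals, and 549.8 in root with the scaling on probes well above background.

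With normexp and loess 10 loci were higher in IR64 and 42 lower, where 3.83% and 5.14% of all probes were. A fit on only the IR64 arrays with limma called 0 loci and 0 of all 83038 probes. At an unadjusted p under 0.05 it had 11 loci higher and 44 lower, and its adjusted p-values were from 0.215 for the named loci. This fit has 1 residual degree of freedom. Leaving out 1 IR64 replicate left 20 loci lower and 2 to 3 higher, 19 to 20 of the 34 and 2 to 3 of the 5 among them; 2.11 to 2.65% of all probes were then higher and 3.42 to 3.52% lower, and the lone replicate is assumed to vary like the other comparisons. With a replicate block, which is also a dye term, 38 loci were lower and 6 higher, where 5.24% and 3.77% of all probes were. The replicate numbers mark the dye orientation and, except on the callus arrays, the shoot extract, and the replicate differences of the comparisons were correlated (r of 0.216 to 0.480, across probes). All 34 and all 5 calls were kept with normexp, centring, the block, the series matrix ratios and with outlier spots kept, and 33 of the 34 where only probes well above background on every IR64 array were tested. R05-00185R had log2 ratios from −4.90 to −2.05, with −2.05 under normexp. Brightness against background limits the dimmest values.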
